A study of Mus musculus with 12 samples.

Results

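Genes of mitosis, the kinetochore and the spindle were followed in 12 mouse malignant peripheral nerve sheath tumours, which are sarcomas that arise in the nerve sheath. The members were 37 named genes of the G2 and mitotic phases, taken as a fixed list and matched by gene symbol, of 54532 genes in the files. All 37 had enough counts to be tested, among 15650 genes tested in all.

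Regressing tumours (4) were harvested while they shrank under daily oral gavage of 100 mg/kg palbociclib, an inhibitor of CDK4 and CDK6, with 1 mg/kg mirdametinib, an inhibitor of MEK. Terminal combination tumours (4) came from animals on the same drugs and doses and were harvested at the terminal time point, as were the vehicle tumours (4). All 3 groups were of strain C57B/6 with the genotype label WT, and in all of them the tumour was induced by adenoviral delivery of a Cas9 system aimed at Nf1 and at a gene spelled Cdk2na in the labels, read here as Cdkn2a. Harvest stage and tumour state therefore cannot be told apart in the regressing group, and this means of induction was shared by treated and vehicle tumours. The labels do not say that each tumour came from a separate mouse, so p-values measure only the spread between these samples. The study design speaks of tumours sensitive or resistant to the combination without tying either word to a treated group.

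In dividing cells the kinase Cdk1 with B-type cyclins starts mitosis, the chromosomes are attached to spindle microtubules through kinetochores, and the spindle checkpoint holds back the anaphase-promoting complex until attachment is complete. The anaphase-promoting complex then tags cyclin B and securin for destruction, sister chromatids part, and a contractile ring divides the cell. Most of the genes involved are transcribed late in the cell cycle under the MuvB complex with Mybl2 and Foxm1, and their RNA is widely read as a measure of the share of dividing cells in a tumour. In bulk tissue, fewer dividing cells and less of these RNAs per cell cannot be told apart.

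Promoter windows of 300 bases, from 250 before to 50 after the RefSeq start (GRCm38.p6), were matched for 32 of the 37 members. They were searched on both strands for CCAAT, which the factor NF-Y binds, and for TTTGAA or TTCGAA, the core of the cell cycle genes homology region that MuvB binds. TTTGAA or TTCGAA stood in the windows of 25 of the 32 members (78.1%), in 51 of 100 other mitosis genes with a window (51%), and in 5854 of all 27025 genes (21.7%). CCAAT stood in 24 of the 32 (75%), against 41.1% of all genes, and both motifs in 22 of the 32 (68.8%), against 8.61% of all genes. A match of 6 letters is a description and not a bound site, and in these windows 1 match to TTTGAA or TTCGAA overlapped a CCAAT. Stretches upstream of the RefSeq start are shown for 6 members with values below, because each holds both motifs. In GENCODE M21, 26 bases of the Cdk1 stretch, 9 of Cdc20 and 28 of Ube2c lie in exons of the same gene. A marked motif is among those bases in each. Capitals mark the motifs on either strand, so CCAAT also appears as ATTGG and TTTGAA as TTCAAA.
Mki67 (chr7:135716452-135716555, minus strand): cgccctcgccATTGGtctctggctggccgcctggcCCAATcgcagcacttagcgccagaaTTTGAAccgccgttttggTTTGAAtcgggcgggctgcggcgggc
Top2a (chr11:99024190-99024299, minus strand): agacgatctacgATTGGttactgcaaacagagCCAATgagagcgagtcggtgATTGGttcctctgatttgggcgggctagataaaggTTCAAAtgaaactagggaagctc
Cdk1 (chr10:69352913-69353022, minus strand): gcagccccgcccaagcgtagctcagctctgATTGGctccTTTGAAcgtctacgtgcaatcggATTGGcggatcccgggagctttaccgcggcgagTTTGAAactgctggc
Cdc20 (chr4:118437344-118437421, minus strand): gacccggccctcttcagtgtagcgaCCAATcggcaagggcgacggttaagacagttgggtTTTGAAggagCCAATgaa
Ube2c (chr2:164769840-164769925, plus strand): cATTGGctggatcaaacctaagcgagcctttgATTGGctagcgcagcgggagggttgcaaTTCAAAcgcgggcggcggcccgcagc
Kif11 (chr19:37376303-37376381, plus strand): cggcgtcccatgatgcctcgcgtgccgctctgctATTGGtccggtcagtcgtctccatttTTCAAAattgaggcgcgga
In 23 of the 25 members with a match, one lay within 50 bases of the start on either side. No match to TTTGAA or TTCGAA was found in the windows of Birc5, Ccnb1, Cenpe, Melk, Mybl2, Nuf2 and Nusap1.

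Levels are given as CPM, counts scaled to the library size after adjustment by the TMM method, and differences as log2 values fitted by edgeR with all 12 tumours in one model. Library totals ran from 13194699 to 22639625 counts, and a count of 0 would allow up to 0.128 to 0.231 CPM for counting error only. The targeted genes were counted in every tumour, and their edgeR adjusted p lay between 0.746 and 0.972 for Nf1 and between 0.908 and 0.969 for Cdkn2a over the 3 comparisons (whether they were edited was not tested). Schwann lineage markers were scarce: the 8 genes summed to 35.1 to 52.5 CPM in the regressing group, 14.0 to 57.2 CPM in the terminal combination group and 9.79 to 54.9 CPM in the vehicle group, and Sox10, the lineage's defining factor, was at 0 in terminal combination replicate 1 and vehicle replicates 2 and 4. Within these low levels, of the 7 Schwann genes tested, 5 in regressing and 4 in terminal combination tumours were higher than vehicle at an unadjusted p under 0.05, where 6.72% and 3.35% of all genes were higher, and edgeR called none. Their median log2 differences were 2.16 in regressing and 1.89 in terminal combination tumours. Sox10 stood at 0.892, 1.16, 1.11 and 0.54 CPM in regressing, 0, 0.715, 2.10 and 0.456 CPM in terminal combination and 0.0856, 0, 0.0508 and 0 CPM in vehicle replicates 1 to 4. Erbb3, a neuregulin receptor, differed the other way, at -2.88 (SE 0.92) in regressing and -2.03 (SE 0.88) in terminal combination tumours, with 37.04 CPM in vehicle replicate 1. The part of Schwann lineage cells in the members' values below was not tested. Skeletal muscle RNA differed widely between tumours and is set beside the results below.

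All 37 members had a lower fitted level in both treated groups than in vehicle tumours, and none passed the threshold. In regressing against vehicle tumours the median log2 difference was -0.72, a ratio of 0.607, with members from -1.49 to -0.36, beside a median of -0.02 over all genes tested. In terminal combination against vehicle tumours the median was -0.85, a ratio of 0.555, with members from -1.50 to -0.35, beside 0 over all genes. The count of negative members is to be read with the 51.5% and 49.6% of all genes that were negative in these comparisons, and with the fact that the 37 genes move together from tumour to tumour, so they are not 37 separate observations. Both comparisons share the 4 vehicle tumours.

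No member was called at an adjusted p under 0.05, where 0% of all genes were called. The smallest edgeR adjusted p among members was 0.240 in regressing and 0.819 in terminal combination against vehicle tumours. At an unadjusted p under 0.05, 7 members (18.9%) were lower in regressing tumours, where 6.03% of all genes were lower at that level, and 16 members (43.2%) were lower in terminal combination tumours, against 2.59% of all genes. With both treated groups averaged, 23 members (62.2%) were lower at that level, against 5.18% of all genes; 50.8% of all genes were negative in that average. These counts rested on the fit used and on single libraries. With only the groups compared in the fit, the edgeR count was 18 in regressing tumours (6.88% of all genes). It was 21 in terminal combination tumours (2.3%) and 25 in the average (4.65%). The count in regressing tumours was 26 without regressing replicate 2 (5.87% of all genes in the same fit), 17 without terminal combination replicate 4 (5.95%) and 12 without terminal combination replicate 3 (5.68%); the last 2 libraries belong to neither group compared and share its fit. It was 4 without regressing replicate 1 (3.45%), regressing replicate 4 (4.02%), vehicle replicate 3 (4%) or vehicle replicate 4 (4.88%). The count in terminal combination tumours was 33 without terminal combination replicate 3 (5.2%), 5 without terminal combination replicate 2 (1.39%) or 4 (1.88%), 6 without vehicle replicate 3 (1.5%) and 8 without vehicle replicate 4 (1.96%). With both treated groups averaged it was 9 without vehicle replicate 3 (2.73%) and 12 without vehicle replicate 4 (3.93%). With the skeletal muscle score described below as a term in the fit, each of these counts was 2. The shares of all genes were then 2.61% in regressing tumours, 1.58% in terminal combination tumours and 1.99% in the average. Without the 3 muscle-rich libraries named below, the counts were 1 (1.66%), 11 (1.65%) and 3 (2.1%) in the same order. Values of the treated tumours all lay below those of all vehicle tumours for 9 members (24.3%) in the regressing group, against 4.13% of all genes, and for 8 members (21.6%) in the terminal combination group, against 1.3% of all genes. Some gaps were narrow. In regressing replicate 2, Ccnb2, Ube2c and Ect2 stood at 53.59, 58.7 and 38.5 CPM. Their lowest vehicle values were 53.72, 59.37 and 38.88 CPM. The highest Incenp and Cdc20 in terminal combination tumours were 60.71 and 77.58 CPM, against lowest vehicle values of 61.89 and 78.74 CPM. Others were wider, as for Cenpa in regressing tumours, at most 45.29 against at least 51.28 CPM.

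**Figure D1:**
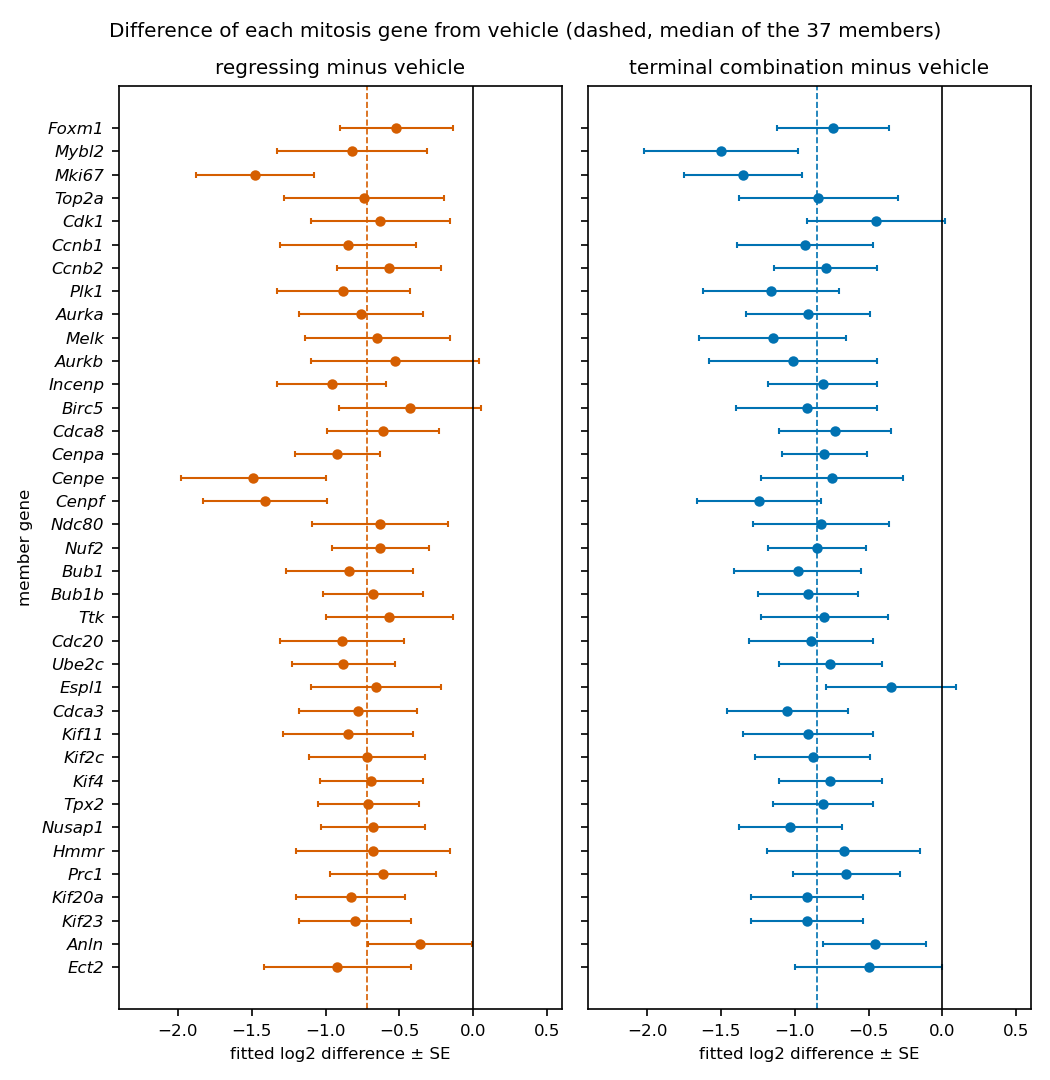
Fitted log2 difference from vehicle of each of the 37 members, with its standard error, in regressing (left) and terminal combination tumours (right). Dashed lines mark the medians of -0.72 and -0.85, and every point lies below 0.

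The tumours of each treated group spread widely. Expressed as the median over the 37 members of each gene's percent of its vehicle mean, regressing replicates 1 to 4 stood at 34%, 94.1%, 67.7% and 39.3%, terminal combination replicates 1 to 4 at 60.2%, 39.8%, 88.0% and 24.2%, and vehicle replicates 1 to 4 at 88.7%, 86.8%, 117% and 106%. The mean was 58.8% ± 27.8 for the regressing group, 53.0% ± 27.6 for the terminal combination group and 99.6% ± 14.4 for the vehicle group (SD, n = 4 each), and regressing replicate 2 and terminal combination replicate 3 were at the level of the lower vehicle tumours. Every one of the 37 members lay below the lowest vehicle tumour in regressing replicates 1 and 4 and in terminal combination replicates 2 and 4, 32 did so in regressing replicate 3 and terminal combination replicate 1, and 9 in regressing replicate 2 and terminal combination replicate 3. Vehicle replicates 1 and 2, the lower vehicle tumours here, have sample titles ending in FFT, which is not explained. Replicate 1 of each treated group has the same ending.

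The order of tumours was largely shared by the members. Regressing replicate 2 was the highest of its group for 37 of 37 members and replicate 1 the lowest for 31. Terminal combination replicate 4 was the lowest of its group for 33 members and of all 12 tumours for 28, and replicate 3 was the highest of its group for 30. Vehicle replicate 3 was the highest of all 12 tumours for 22 members and replicate 4 for 8. Across a group's 4 tumours, the coefficient of variation had a median over members of 49.3% for the regressing group, 53.6% for the terminal combination group and 16.3% for the vehicle group. Over all genes that median was 24.6% for the regressing group, 30.5% for the terminal combination group and 26.6% for the vehicle group. The members were thus more variable than the typical gene in both treated groups and less variable in the vehicle group, a description with no test.

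**Figure D2:**
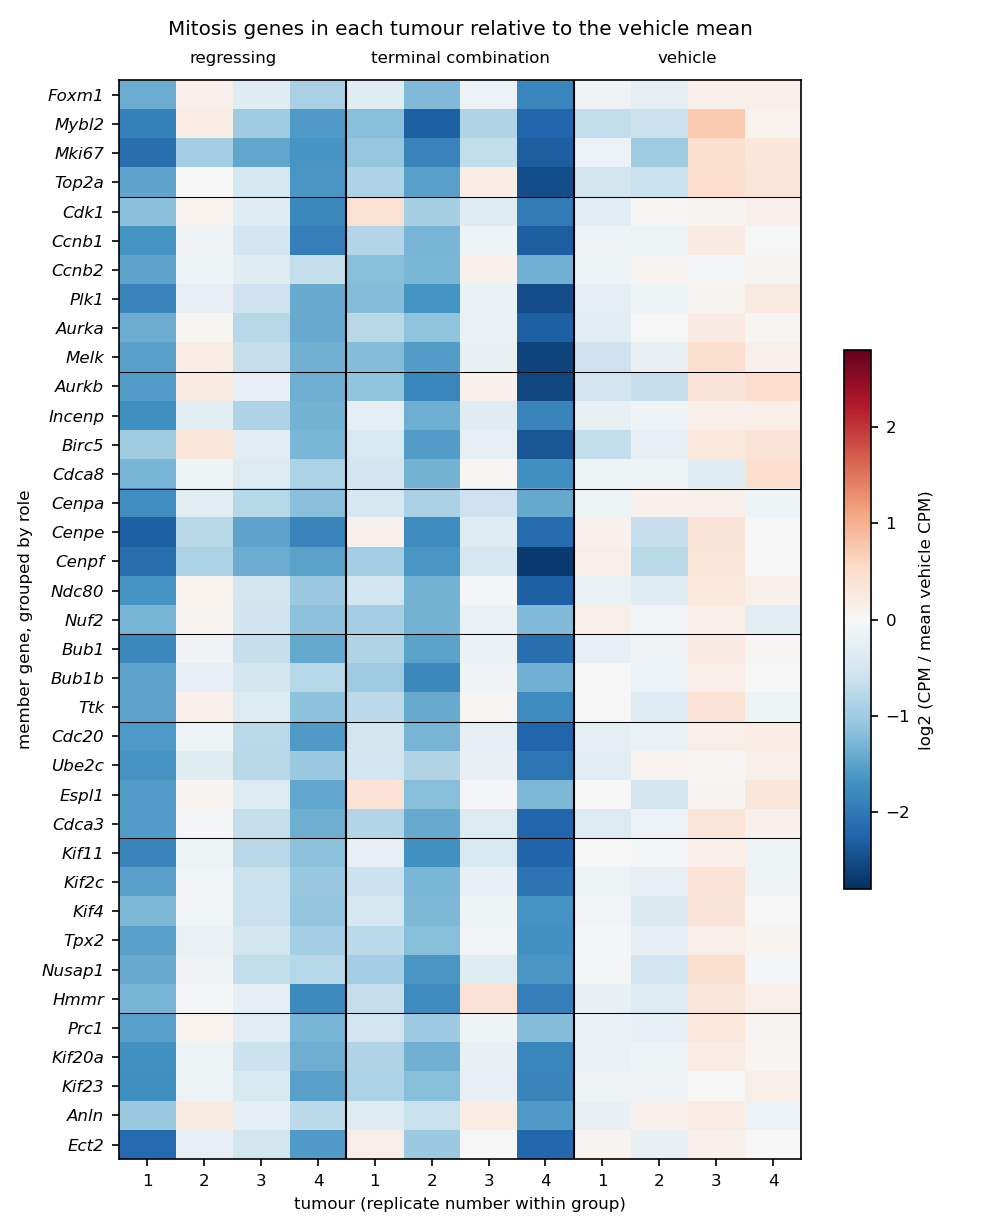
Level of each member in each tumour as log2 of its CPM over its mean CPM in vehicle tumours, with members grouped by role from transcription factors at the top to cytokinesis genes at the bottom. Columns for regressing replicates 1 and 4 and terminal combination replicates 2 and 4 are blue for all 37 members, and regressing replicate 2 and terminal combination replicate 3 resemble the vehicle columns for most.

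The transcription and marker group held Mki67, Top2a and the factors Foxm1 and Mybl2. Mki67, which encodes the Ki-67 protein that coats mitotic chromosomes and marks cycling cells, stood at 28.7, 63.6, 45.0 and 39.3 CPM in regressing, 58.2, 33.9, 76.4 and 25.0 CPM in terminal combination and 109, 61.5, 169 and 153 CPM in vehicle replicates 1 to 4. Vehicle replicate 2 was the one vehicle tumour inside the range of the treated tumours. Mki67 averaged 44.1 ± 14.7 CPM in regressing, 48.3 ± 23.3 CPM in terminal combination and 123 ± 48.2 CPM in vehicle tumours (SD, n = 4 each). Its log2 difference from vehicle was -1.48 (SE 0.40, edgeR adjusted p = 0.240) in regressing and -1.35 (SE 0.40, edgeR adjusted p = 0.819) in terminal combination tumours, with the smallest unadjusted p of all members in both, 0.00334 and 0.00589. With both treated groups averaged the difference was -1.41 (SE 0.33), and by p it ranked 24 among the 15650 genes in edgeR (adjusted p = 0.408).

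Top2a, the topoisomerase that untangles sister chromatids, stood at 97.9, 271, 193 and 88.1 CPM in regressing, 150, 93.9, 313 and 48.1 CPM in terminal combination and 189, 175, 375 and 344 CPM in vehicle replicates 1 to 4. Both treated groups overlapped the vehicle tumours. Its log2 differences of -0.74 (SE 0.54) and -0.84 (SE 0.54) in regressing and terminal combination tumours were near the members' medians. Foxm1, the forkhead factor that drives late cell cycle genes, stood at 26.3, 76.3, 54.5 and 36.9 CPM in regressing, 54.7, 29.7, 62.2 and 19.7 CPM in terminal combination and 65.1, 58.0, 77.3 and 77.2 CPM in vehicle replicates 1 to 4. Regressing replicate 2 and terminal combination replicate 3 were within the vehicle range, and the log2 differences were -0.52 (SE 0.38) in regressing and -0.74 (SE 0.38) in terminal combination tumours.

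Mybl2, the MYB family partner of MuvB that acts earlier in the cycle, stood at 7.52, 32.4, 14.1 and 9.26 CPM in regressing, 12.2, 5.72, 15.4 and 5.99 CPM in terminal combination and 17.2, 18.4, 45.9 and 29.9 CPM in vehicle replicates 1 to 4. All terminal combination tumours lay below all vehicle tumours, with a log2 difference of -1.50 (SE 0.52, unadjusted p = 0.0146, adjusted p = 0.819 in edgeR), the largest among members in that comparison. Regressing tumours overlapped the vehicle tumours (-0.82, SE 0.51). Mybl2 was also the most variable member in the regressing and vehicle groups, with coefficients of variation of 72.1% and 47.9%.

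Kinases and cyclins of mitotic entry made up 6 members, with median log2 differences of -0.71 in regressing and -0.92 in terminal combination tumours against vehicle. Cdk1, the kinase that starts mitosis, stood at 51.4, 123, 91.1 and 33.1 CPM in regressing, 156, 60.8, 91.1 and 29.8 CPM in terminal combination and 94.7, 119, 121 and 126 CPM in vehicle replicates 1 to 4. Terminal combination replicate 1 was the highest of the 12 tumours for Cdk1, while replicate 4 was the lowest. The log2 difference of Cdk1 was -0.63 (SE 0.47) in regressing and -0.45 (SE 0.47) in terminal combination tumours (edgeR adjusted p = 0.596 and 0.916).

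Ccnb1, the cyclin B1 partner of Cdk1, stood at 26.4, 79.4, 58.6 and 22.5 CPM in regressing, 47.6, 34.3, 78.2 and 17.0 CPM in terminal combination and 78.7, 76.8, 98.7 and 83.6 CPM in vehicle replicates 1 to 4. Regressing replicate 2 and terminal combination replicate 3 reached the vehicle range and the other treated tumours did not. The log2 differences were -0.85 (SE 0.46) in regressing and -0.93 (SE 0.46) in terminal combination tumours. Ccnb2, the other B-type cyclin, averaged 39.5 ± 14 CPM in regressing, 34 ± 19.5 CPM in terminal combination and 58.7 ± 3.8 CPM in vehicle tumours (SD, n = 4 each). The regressing tumours all lay below the vehicle tumours, the nearest at 53.6 against 53.7 CPM.

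Plk1, the polo-like kinase of spindle assembly and mitotic exit, stood at 23.6, 74.4, 57.6 and 32.7 CPM in regressing, 37.1, 27.2, 75.6 and 15.4 CPM in terminal combination and 72.8, 79.9, 90.9 and 103 CPM in vehicle replicates 1 to 4. Regressing replicate 2 and terminal combination replicate 3 stood just above the lowest vehicle tumour. Its log2 differences were -0.88 (SE 0.45) in regressing and -1.16 (SE 0.46) in terminal combination tumours. Aurka, the centrosomal Aurora kinase, stood at 17.4, 46.7, 26.9 and 17.3 CPM in regressing, 26.9, 21.2, 40.6 and 9.36 CPM in terminal combination and 36.8, 45.8, 54.2 and 47.0 CPM in vehicle replicates 1 to 4. The groups overlapped through the same high tumours, regressing replicate 2 and terminal combination replicate 3, with log2 differences of -0.76 (SE 0.42) and -0.91 (SE 0.42). Melk, a kinase of proliferating cells, had log2 differences of -0.65 (SE 0.49) in regressing and -1.15 (SE 0.50) in terminal combination tumours.

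**Figure D3:**
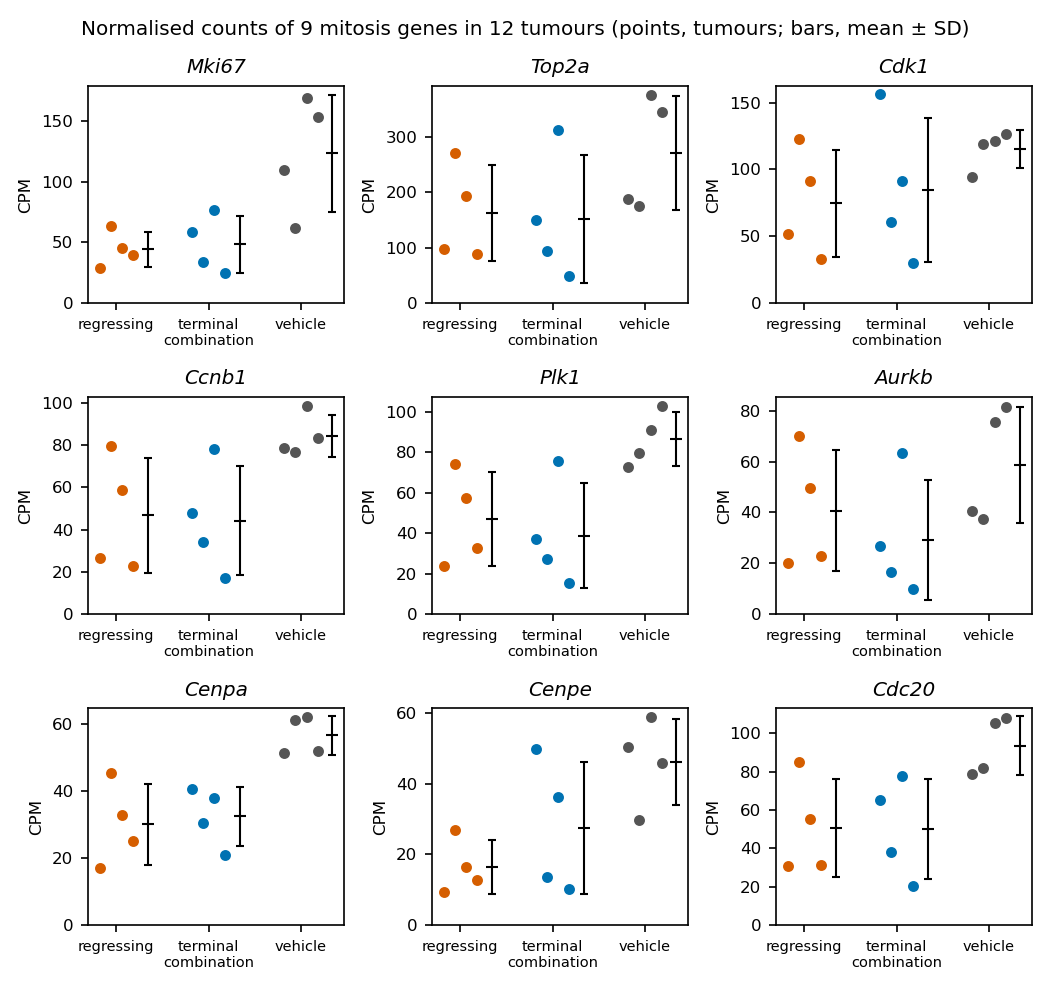
CPM of 9 members in each tumour (points, replicates 1 to 4 from left to right in each group) with the mean and SD of each group beside them. For Cenpa the 8 treated tumours lie between 16.9 and 45.3 CPM and the vehicle tumours between 51.3 and 62.0 CPM, and for the other 8 genes at least 1 treated tumour reaches the vehicle range.

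The chromosomal passenger complex corrects faulty attachments and guides cytokinesis through the kinase Aurkb, the scaffold Incenp, Birc5 (survivin) and Cdca8 (borealin). Its 4 genes had median log2 differences of -0.57 in regressing and -0.87 in terminal combination tumours. Incenp averaged 37.4 ± 15.8 CPM in regressing, 41.6 ± 20.4 CPM in terminal combination and 72.8 ± 9.84 CPM in vehicle tumours (SD, n = 4 each). The treated tumours all lay below the vehicle tumours, the nearest at 60.7 against 61.9 CPM. Its log2 difference was -0.96 (SE 0.37, edgeR adjusted p = 0.325) in regressing and -0.81 (SE 0.37, edgeR adjusted p = 0.819) in terminal combination tumours.

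Aurkb stood at 19.9, 70.0, 49.6 and 22.7 CPM in regressing, 26.9, 16.5, 63.2 and 9.98 CPM in terminal combination and 40.6, 37.2, 75.4 and 81.3 CPM in vehicle replicates 1 to 4. The vehicle tumours themselves formed a lower and a higher pair, and both treated groups overlapped them. Birc5 stood at 39.7, 99.6, 62.7 and 32.2 CPM in regressing, 57.3, 26.7, 66.8 and 14.9 CPM in terminal combination and 48.9, 66.9, 97.0 and 102 CPM in vehicle replicates 1 to 4. In regressing tumours these were the members with the largest p: Aurkb at -0.53 (SE 0.57, edgeR adjusted p = 0.717) and Birc5 at -0.43 (SE 0.48, edgeR adjusted p = 0.729). The passenger genes of one complex therefore had fitted differences from -0.96 to -0.43 in regressing tumours, and their differences from each other were not tested.

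Kinetochore and centromere genes had median log2 differences of -0.92 in regressing and -0.82 in terminal combination tumours. Cenpf, a large kinetochore protein that binds the nuclear matrix in G2, stood at 10.3, 24.0, 16.9 and 15.7 CPM in regressing, 22.6, 14.3, 31.4 and 6.90 CPM in terminal combination and 49.96, 26.5, 56.4 and 45.0 CPM in vehicle replicates 1 to 4. The regressing tumours all lay below the vehicle tumours, and terminal combination replicate 3 overlapped vehicle replicate 2. The log2 difference was -1.41 (SE 0.42, unadjusted p = 0.00634, adjusted p = 0.254 in edgeR) in regressing and -1.24 (SE 0.42, unadjusted p = 0.0127, adjusted p = 0.819 in edgeR) in terminal combination tumours.

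Cenpe, the kinesin that moves chromosomes to the spindle equator, stood at 9.49, 27.0, 16.5 and 12.9 CPM in regressing, 49.8, 13.6, 36.4 and 10.3 CPM in terminal combination and 50.4, 29.7, 59.0 and 45.8 CPM in vehicle replicates 1 to 4. Every regressing tumour was below every vehicle tumour, while terminal combination replicates 1 and 3 were inside the vehicle range. Its log2 difference was -1.49 (SE 0.49, edgeR adjusted p = 0.277) in regressing and -0.75 (SE 0.48, edgeR adjusted p = 0.865) in terminal combination tumours.

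Cenpa, the histone variant that marks the centromere, stood at 16.9, 45.3, 32.7 and 25.1 CPM in regressing, 40.6, 30.3, 37.7 and 20.9 CPM in terminal combination and 51.3, 61.2, 62.0 and 51.8 CPM in vehicle replicates 1 to 4. Neither treated group overlapped the vehicle tumours, which was so for 3 members, Cenpa, Incenp and Kif23, when the 8 treated tumours were set against the 4 vehicle tumours; 0.383% of all genes were lower in that way. Cenpa had log2 differences of -0.92 (SE 0.29, edgeR adjusted p = 0.265) in regressing and -0.80 (SE 0.29, edgeR adjusted p = 0.819) in terminal combination tumours. Ndc80 and Nuf2, the pair that grips microtubule ends, had log2 differences of -0.63 (SE 0.46) and -0.63 (SE 0.33) in regressing and of -0.82 (SE 0.46) and -0.85 (SE 0.33) in terminal combination tumours, and overlapped the vehicle tumours in both.

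The spindle checkpoint kinases Bub1, Bub1b (BubR1) and Ttk (Mps1) had median log2 differences of -0.68 in regressing and -0.91 in terminal combination tumours. Bub1 stood at 10.8, 35.2, 24.1 and 13.9 CPM in regressing, 20.9, 13.3, 33.2 and 8.79 CPM in terminal combination and 32.2, 35.2, 44.7 and 38.8 CPM in vehicle replicates 1 to 4. Regressing replicate 2 and terminal combination replicate 3 overlapped the vehicle tumours, and the other 6 treated tumours were below them. Bub1b, with log2 differences of -0.68 (SE 0.34) in regressing and -0.91 (SE 0.34) in terminal combination tumours, was lower in every regressing tumour than in any vehicle tumour.

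Genes around the anaphase-promoting complex comprised Cdc20, its mitotic activator, Ube2c, the ubiquitin-conjugating enzyme that works with it, Espl1 (separase), which cuts cohesin, and Cdca3, a regulator of mitotic entry. Cdc20 had the highest length-adjusted level of the 37 in vehicle tumours, 50 ± 8.17 FPKM (SD, n = 4), next to Plk1 at 39.4 ± 6.0 FPKM and Ccnb2 at 38.4 ± 2.5 FPKM; Cenpf was lowest at 2.88 ± 0.833 FPKM. Plk1 and Ccnb2 differed by less than the spread of Plk1 between tumours. Cdc20 stood at 30.5, 85.0, 55.5 and 31.2 CPM in regressing, 65.3, 38.0, 77.6 and 20.1 CPM in terminal combination and 78.7, 81.8, 105 and 108 CPM in vehicle replicates 1 to 4. The terminal combination tumours all lay below the vehicle tumours and regressing replicate 2 did not, with log2 differences of -0.89 (SE 0.42) in regressing and -0.89 (SE 0.42) in terminal combination tumours.

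Ube2c averaged 40.4 ± 14.6 CPM in regressing, 43.8 ± 19.6 CPM in terminal combination and 74.2 ± 10.1 CPM in vehicle tumours (SD, n = 4 each). The regressing tumours all lay below the vehicle tumours, the nearest at 58.7 against 59.4 CPM (log2 difference -0.88, SE 0.35, edgeR adjusted p = 0.341). In the annotation 22.8% of the exon bases of Ube2c are shared with the opposite strand of Tnnc2, a troponin of fast muscle, and the strand setting of the counting is not given in the sources used here. In the 4 regressing tumours Tnnc2 had 2684, 199, 511 and 1674 CPM, and Ube2c per Cdc20 was 0.777, 0.691, 0.776 and 1.16 in the same tumours. The 2 treated tumours with the most Tnnc2 after regressing replicate 1, regressing replicate 4 and terminal combination replicate 2, had the highest ratios, 1.16 and 1.09, and regressing replicate 1 did not. Vehicle replicate 2 had the next highest ratio, 0.973, with the lowest Tnnc2 of all tumours, 25.4 CPM. Whether muscle reads entered Ube2c was not tested. Kif20a shares 29.3% of its exon bases with the opposite strand of Cdc23, and Kif4 15.1% with Pdzd11.

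Espl1 stood at 11.9, 37.2, 26.9 and 12.8 CPM in regressing, 46.0, 15.4, 33.7 and 14.7 CPM in terminal combination and 35.5, 24.4, 36.7 and 43.6 CPM in vehicle replicates 1 to 4. It was highest of all 12 tumours in terminal combination replicate 1, as were Cdk1 and Ect2. The log2 difference of Espl1 in terminal combination tumours, -0.35 (SE 0.44, edgeR adjusted p = 0.930), was the smallest of the 37.

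Spindle motors and microtubule proteins (Kif11, Kif2c, Kif4, Tpx2, Nusap1 and Hmmr) had median log2 differences of -0.70 in regressing and -0.84 in terminal combination tumours, with a narrow range from -0.85 to -0.68 in regressing tumours. Kif11, the kinesin that pushes spindle poles apart, stood at 13.6, 44.4, 28.4 and 22.1 CPM in regressing, 42.0, 15.2, 36.3 and 10.3 CPM in terminal combination and 48.8, 47.4, 55.5 and 44.0 CPM in vehicle replicates 1 to 4. All terminal combination tumours were below the vehicle tumours, and regressing replicate 2 was just above vehicle replicate 4. Nusap1, which bundles spindle microtubules, stood at 10.3, 25.5, 17.0 and 15.7 CPM in regressing, 14.2, 8.82, 21.7 and 8.84 CPM in terminal combination and 26.6, 18.8, 37.3 and 27.0 CPM in vehicle replicates 1 to 4. Both treated groups overlapped vehicle replicate 2 only, and the terminal combination difference was -1.03 on the log2 scale (SE 0.35, unadjusted p = 0.0136, adjusted p = 0.819 in edgeR).

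Cytokinesis genes (Prc1, Kif20a, Kif23, Anln and Ect2) had median log2 differences of -0.80 in regressing and -0.65 in terminal combination tumours. Prc1, which bundles the central spindle, stood at 41.2, 127, 94.8 and 47.7 CPM in regressing, 82.0, 58.7, 109 and 50.9 CPM in terminal combination and 103, 100.5, 145 and 125 CPM in vehicle replicates 1 to 4. Regressing replicate 2 and terminal combination replicate 3 were again inside the vehicle range. Kif23, the central spindle kinesin MKLP1, had log2 differences of -0.80 (SE 0.38) in regressing and -0.92 (SE 0.38) in terminal combination tumours, and all 8 treated tumours were below all vehicle tumours. Anln (anillin), which links the contractile ring to the membrane, had the smallest difference in regressing tumours, -0.36 (SE 0.35). It averaged 106 ± 42.3 CPM in regressing, 99.1 ± 46.5 CPM in terminal combination and 136 ± 19.3 CPM in vehicle tumours (SD, n = 4 each).

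Terminal combination and regressing tumours were then compared directly. Among the 37 members 27 had a negative and 10 a positive difference of terminal combination minus regressing tumours, with a median of -0.10 and a range from -0.68 to 0.74, beside 0.01 over all genes, of which 49.2% were negative. No member had an unadjusted p under 0.05, 2.9% of all genes being lower and 4.12% higher at that level, and all 37 overlapped between the groups, where 1.51% of all genes were wholly lower and 2.4% wholly higher. Cenpe had the smallest p, at 0.74 (SE 0.48, unadjusted p = 0.153, adjusted p = 0.747 in edgeR), followed by Mybl2 at -0.68 (SE 0.51, unadjusted p = 0.211) and Birc5 at -0.50 (SE 0.48, unadjusted p = 0.317) in the same edgeR fit. Hmmr, a hyaluronan receptor that also sits on spindles, had the second largest p after Cdc20, and stood at 26.6, 12.4, 55.6 and 11.1 CPM in terminal combination against 17.0, 40.8, 34.7 and 12.2 CPM in regressing replicates 1 to 4. The direction of the median rested on single tumours: it was 0.19 without regressing replicate 2 and 0.11 without terminal combination replicate 4, and -0.50 without terminal combination replicate 3.

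As shares of the members' summed CPM, which compares the genes with each other inside one tumour, 35 members overlapped between regressing and vehicle tumours and the shares of Cenpe and Foxm1 did not. Cenpe made up 1.09%, 1.13%, 0.967% and 1.2% of the sum in regressing tumours against 2.31%, 1.39%, 1.96% and 1.65% in vehicle tumours, and Foxm1 3.01%, 3.19%, 3.19% and 3.56% against 2.98%, 2.70%, 2.57% and 2.79%. For Foxm1 the groups were apart only by 3.01% against 2.98%. These shares exist for members only, so the count has no share over all genes beside it, and it was not tested. No member's share separated terminal combination from vehicle tumours. Cdk1 made up 9.23% of the sum in terminal combination replicate 1 and from 3.20% to 5.98% in the other 11 tumours.

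Other mitosis genes outside the 37, 122 genes in 6 lists, were all tested. Of these, 111 were negative in regressing and 111 in terminal combination tumours against vehicle, with median log2 differences of -0.48 and -0.58, and none was called. The 26 further spindle, kinesin and cytokinesis genes were negative in all cases in both comparisons, with medians of -0.70 and -0.75. Kif14, a kinesin of the midbody, stood at 3.89, 12.4, 10.1 and 7.71 CPM in regressing, 8.04, 6.25, 11.0 and 3.82 CPM in terminal combination and 19.3, 13.7, 24.4 and 16.7 CPM in vehicle replicates 1 to 4, and both treated groups lay wholly below vehicle (-1.12, SE 0.39, and -1.35, SE 0.39, edgeR adjusted p = 0.282 and 0.819). Kif15, a spindle kinesin that can stand in for Kif11, was at -1.01 (SE 0.43) in regressing and -1.52 (SE 0.44) in terminal combination tumours.

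The 37 further kinetochore, centromere and checkpoint genes had medians of -0.48 and -0.70, with 36 negative in each comparison, and Spc24, a partner of Ndc80, was at -0.75 (SE 0.43) in regressing and -1.29 (SE 0.43) in terminal combination tumours. The 13 condensin and cohesin genes had medians of -0.53 and -0.58. Smc3, a core cohesin subunit, stood at 49.5, 71.3, 61.8 and 54.0 CPM in regressing, 102, 68.1, 77.9 and 63.3 CPM in terminal combination and 81.0, 112, 81.9 and 86.6 CPM in vehicle replicates 1 to 4, and the regressing tumours alone lay wholly below vehicle. The 20 further regulators of G2 and M had medians of -0.59 and -0.58 with 19 negative in each. Pttg1 (securin), the inhibitor of separase, was the exception: it stood at 38.8, 26.8, 21.5 and 44.7 CPM in regressing, 19.2, 22.8, 23.1 and 34.8 CPM in terminal combination and 20.4, 19.5, 23.4 and 17.8 CPM in vehicle replicates 1 to 4. Its log2 difference in regressing tumours was 0.70 (SE 0.25, unadjusted p = 0.0172, adjusted p = 0.291 in edgeR), and regressing replicate 3 overlapped the vehicle tumours.

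The remaining lists had medians closer to 0. The 16 subunits of the anaphase-promoting complex had medians of -0.08 in regressing and -0.14 in terminal combination tumours, with 10 and 11 negative. Anapc5 was higher in every regressing tumour than in any vehicle tumour (log2 difference 0.79, SE 0.26, edgeR adjusted p = 0.277), as were 548 of all 15650 genes. It stood at 871, 383, 377 and 450 CPM in regressing and 279, 317, 279 and 324 CPM in vehicle replicates 1 to 4, so regressing replicate 1 was far the highest. The 10 subunits of MuvB and the DREAM complex, which repress or activate these genes, had medians of -0.24 and -0.20 with 7 negative in each. E2f4, the repressive E2F of DREAM, was at -0.49 (SE 0.16, edgeR adjusted p = 0.278) in regressing and -0.36 (SE 0.16, edgeR adjusted p = 0.819) in terminal combination tumours. Differences between the lists were not tested.

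**Figure D4:**
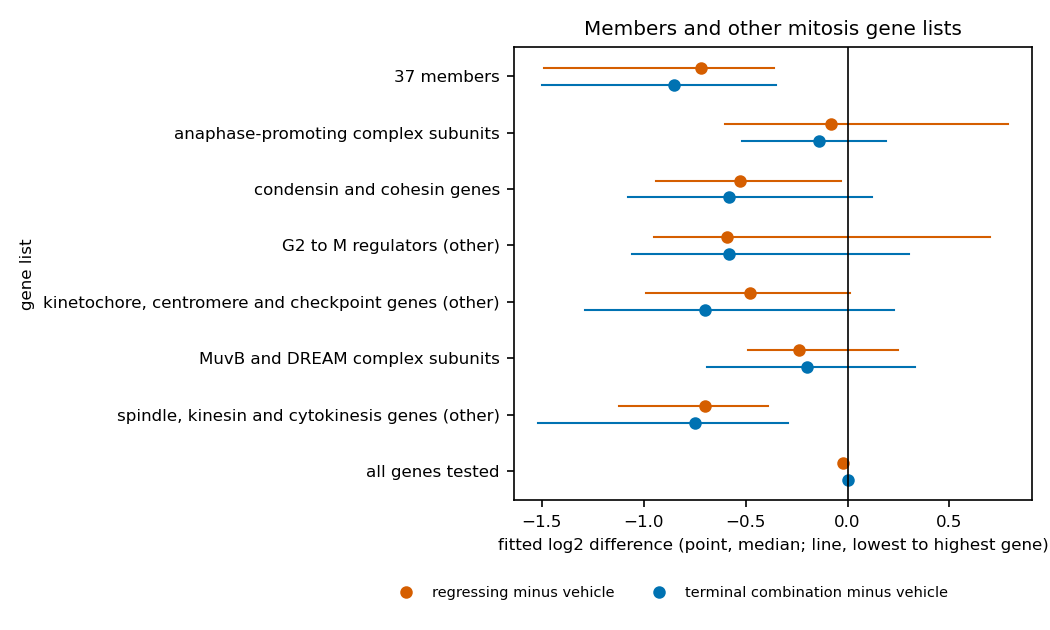
Median (point) and range from the lowest to the highest gene (line) of the fitted log2 differences from vehicle for the 37 members, the 6 other mitosis lists and, as a median alone, all genes tested. The members lie at -0.72 and -0.85, the subunits of the anaphase-promoting complex at -0.08 and -0.14.

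Skeletal muscle RNA was higher in many of the tumours with low members. The score of 15 muscle genes, a mean log2 CPM, was 11.06, 7.55, 9.04 and 10.93 in regressing, 7.19, 10.37, 8.88 and 9.54 in terminal combination and 8.86, 4.58, 6.32 and 7.16 in vehicle replicates 1 to 4. All 15 muscle genes had a positive difference in regressing and 14 in terminal combination tumours, and their summed level was 4900 to 65300 CPM in the regressing group, 3310 to 41400 CPM in the terminal combination group and 699 to 11600 CPM in the vehicle group; Myh2 was at 0 in vehicle replicate 2. The tumours with the most muscle RNA, regressing replicates 1 and 4 and terminal combination replicate 2, were among the 4 with the lowest members. Terminal combination replicate 4 had the lowest members of all at a muscle score of 9.54, and terminal combination replicate 1 had 60.2% of the vehicle level at 7.19, a score close to that of vehicle replicate 4. Terminal combination replicate 3 and vehicle replicate 1 had nearly the same score, 8.88 and 8.86, and members at 88.0% and 88.7%.

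With the muscle score as a term in the fit, the members' median log2 difference was -0.24 in regressing and -0.44 in terminal combination tumours, with 32 and 35 members negative. Without regressing replicates 1 and 4 and terminal combination replicate 2, the medians were -0.32 and -0.74, with 34 and 37 negative. Adipocyte RNA was also higher in the treated groups: the summed level of 10 adipocyte genes was 259 to 2280 CPM in the regressing group, 84.3 to 577 CPM in the terminal combination group and 17.9 to 137 CPM in the vehicle group. No adipocyte gene was called by edgeR, where 0% of all genes were called. Their median log2 difference was 3.93 in regressing and 2.48 in terminal combination tumours. At an unadjusted edgeR p under 0.05, 9 were higher in regressing tumours (6.72% of all genes) and 3 in terminal combination tumours (3.35%). In regressing tumours 9 lay wholly above vehicle, as did 548 of all 15650 genes, and in terminal combination tumours 0 did. T and B cell markers were highest in regressing replicate 4, at scores of 5.5 and 5.66. The 9 T cell genes summed to 20.4 to 445 CPM in the regressing group, 19.9 to 71.5 CPM in the terminal combination group and 39.4 to 45.7 CPM in the vehicle group, with 9 positive differences in regressing and 1 in terminal combination tumours. Mitochondrial RNA took 0.839% to 2.14% of counts in the regressing group, 0.785% to 1.49% in the terminal combination group and 0.562% to 0.982% in the vehicle group. The part of these other tissues and of RNA quality in the members' values was otherwise not tested.

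**Figure D5:**
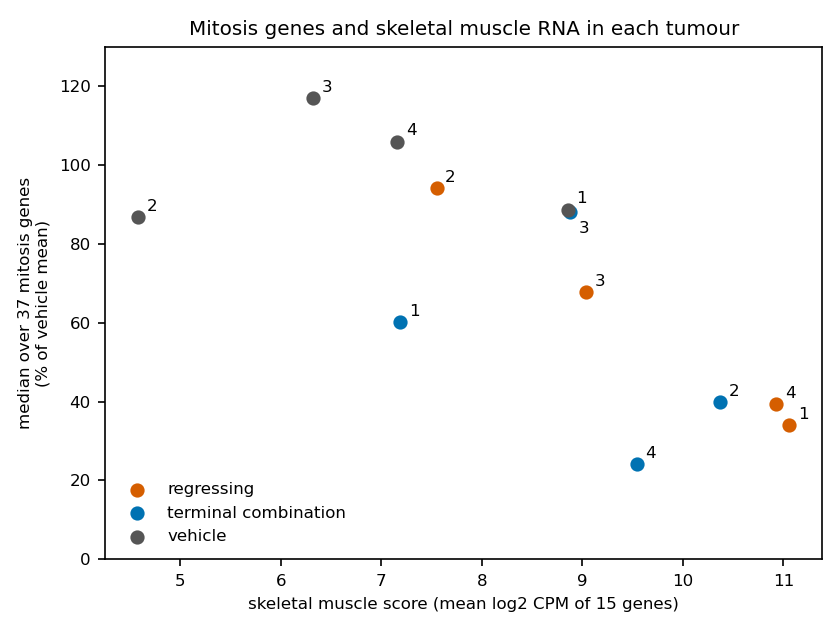
Median of the 37 members as a percent of the vehicle mean against the skeletal muscle score of the same tumour, one point per tumour with its replicate number. The 4 tumours with members below 50% have muscle scores of 9.54 to 11.06, and terminal combination replicate 1 has 60.2% at a score of 7.19.

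Single tumours also set how far the members stood from vehicle. The regressing median was -1.08 without regressing replicate 2 and -0.55 without regressing replicate 1. The terminal combination median was -1.23 without terminal combination replicate 3 and -0.64 without terminal combination replicate 4. By DESeq2, which tests the same counts with another estimate of spread, Mki67 and Cenpf were called lower in regressing tumours (adjusted p = 0.0224 and 0.0465). Over all 15650 genes it called 483 there (3.09%), of which 139 were lower and 344 higher. No member was called in terminal combination tumours, where 14 genes were called (0.0895%).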

How the data were processed

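RNA from 12 tumours in 3 labelled groups of 4 was sequenced as stranded mRNA libraries, per the labels' protocols. The deposited files hold raw counts, 1 whole number per Ensembl gene. The submitters' processing notes name HISAT2 2.2.1, Salmon, DESeq2 1.24.0, mm10 and GRCm38.p6 without their roles; counter, strand setting and annotation are not given in the sources used here. Symbols, positions and exon lengths came from GENCODE M21, in which 54495 of 54532 identifiers were found. No libraries were duplicates (the closest pair had a chi-square of 52.6 per degree of freedom).

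Low genes were removed with filterByExpr at a minimum count of 10 and a minimum total of 15. After TMM normalisation the test was the quasi-likelihood test of edgeR 4.0.16 (R 4.3.3, limma 3.58.1) with all 12 libraries in one fit. P-values were adjusted by Benjamini-Hochberg over 15650 genes, with a threshold of 0.05, and the steps were tested on simulated data. FPKM are CPM per 1000 exon bases. Scores are mean log2 CPM with a prior count of 2. DESeq2 1.42.0 was an alternative, beside other normalisations, filters, covariates and each library left out.

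The members and lists were chosen with earlier results of these data known. By the rule for named genes, tumour values are given for 17 listed members and, in each comparison, for the 3 members with the smallest and the 2 with the largest p; other lists give up to 4 genes by smallest p, and a gene outside these rules was chosen after its values were seen.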

Additional observations from a re-analysis of the deposited data

Results flagged for a closer look

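Ccnb2, the cyclin B2 gene, stood at 63.16 CPM in terminal combination replicate 3, far above the other 3 tumours of its group, which held 25.64, 24.12 and 23.10 CPM. Its gap to the nearest of them was 0.937 of the group's whole range, above Dixon's 95% critical value for 4 samples. It was the one value that stood apart in this way among 111 sets of 4 tumours (37 members in 3 groups). Chance alone gives such a value in about 1 of every 20 sets, a larger share than the 1 in 111 seen here. The same tumour was the highest of its group for 30 of the 37 members.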

How the results depend on the processing

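The members' medians stayed negative against vehicle in every alternative run. Leaving out each library in turn gave -1.08 to -0.55 for regressing, -1.23 to -0.64 for terminal combination and -0.98 to -0.69 for both treated groups averaged, and -0.50 to 0.19 for terminal combination minus regressing tumours, whose direction was therefore not stable. The number of genes called by edgeR was 0 in all of these except terminal combination minus regressing without terminal combination replicate 4, where it was 1 (range 0 to 1); members called were 0 throughout (range 0 to 0). At an unadjusted p under 0.05 edgeR had 1994, 930, 1099 and 1626 genes in regressing minus vehicle, terminal combination minus vehicle, terminal combination minus regressing and treated minus vehicle. DESeq2 called 483, 14, 51 and 259 genes in these 4 comparisons (3.09%, 0.0895%, 0.326% and 1.65% of all genes). Of these, 139, 5, 27 and 49 were lower. It called 2 members, Mki67 and Cenpf, in regressing minus vehicle and the same 2 in treated minus vehicle (adjusted p = 0.0138 and 0.0365), and 0 in the others. Fits that gave each library a muscle score moved some members to 0 or above. In regressing minus vehicle these were Cdk1 at 0.13, Melk at 0, Aurkb at 0.07, Birc5 at 0.32 and Anln at 0.13, in terminal combination minus vehicle Cdk1 at 0.12 and Espl1 at 0.04, and in treated minus vehicle Cdk1 at 0.12 and Anln at 0.05. Without the 3 muscle-rich libraries Aurkb was at 0.03, Birc5 at 0.04 and Anln at 0.01 in regressing minus vehicle. The cause was not tested. Leaving the 15 listed muscle genes, the 10 listed adipocyte genes and the mitochondrial genes out of the normalisation step alone gave medians of -0.71 and -0.85. Other genes expressed in muscle or fat stayed in that step. The libraries whose titles lack the unexplained FFT ending gave -0.73 and -1.09. With that ending as a term in the fit of all libraries, the medians were -0.83 and -0.91. In that fit 12 and 17 members were lower at an unadjusted edgeR p under 0.05, against 5.92% and 3.16% of all genes. No paired analysis was possible because the labels give the groups no shared replicate numbers.

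The members had 11605 to 59132 summed counts per library, and the effect of depth was not tested. Each group had 4 tumours, harvest stage cannot be told apart from the regressing group, muscle, adipocyte and Schwann lineage RNA had positive median differences in both treated groups, and the strand setting is not given for genes that overlap others.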

Other observations

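Exon length among the members ran from 1531 bases (Ccnb2) to 15433 bases (Cenpf). Across the 37 genes, which are not independent and share their libraries, Spearman's rho between exon length and the fitted log2 difference was -0.05 in regressing minus vehicle, 0.32 in terminal combination minus vehicle and 0.48 in terminal combination minus regressing tumours, given as a description. Among regulators of G2 and M outside the members, Cks2, which binds Cdk1, was lower in every treated tumour than in any vehicle tumour. It stood at 9.11, 20.7, 17.3 and 16.3 CPM in regressing, 16.4, 14.4, 21.9 and 8.61 CPM in terminal combination and 22.03, 28.4, 29.0 and 27.2 CPM in vehicle replicates 1 to 4, with log2 differences of -0.75 (SE 0.30, edgeR adjusted p = 0.332) in regressing and -0.80 (SE 0.30, edgeR adjusted p = 0.819) in terminal combination tumours.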
